A study of Homo sapiens with 8 samples.

Results

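Aminoacyl-tRNA synthetases are the enzymes that attach each amino acid to its transfer RNA, the step that supplies charged tRNA to the ribosome. Human cells use one set in the cytosol and another, also encoded in the nucleus, inside mitochondria. This account follows 35 synthetase genes of a fixed list of symbols, 19 that encode cytosolic enzymes and 16 that encode mitochondrial ones, among the 60669 genes of the count tables. A symbol that ends in 2 marks a mitochondrial enzyme, and all 35 symbols were found.

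RNA was sequenced from HCT116, a line from a human colon carcinoma, in 4 groups of 2 libraries each. The groups were unedited (WT) cells and cells whose DPF2 gene had been edited to encode R350H, each either left untreated or given 0.5 µM doxorubicin for 24 h. The DPF2 protein belongs to BAF, a complex that remodels chromatin, and the series asked how this subunit's contact with H3K56ac, an acetylated form of histone H3, bears on gene expression under DNA damage. Doxorubicin is a topoisomerase II poison that breaks DNA. The edit was made with CRISPR/Cas9, and the labels give neither the number of edited clones or alleles nor the cultures behind the libraries. A difference between the lines other than the edit therefore cannot be told apart from the edit, and p-values measure the spread between these libraries, which may be technical.

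Several cytosolic synthetases form a multi-synthetase complex with the scaffold proteins AIMP1, AIMP2 and EEF1E1. The transcription factor ATF4, made when eIF2 alpha is phosphorylated under amino acid shortage and other stresses, is known to raise many cytosolic synthetase genes together with genes of amino acid synthesis and import. ATF4 binds with C/EBP partners to an element whose core reads TGATGNAA. The mitochondrial enzymes charge the tRNAs encoded by mitochondrial DNA, which serve the translation of respiratory chain subunits.

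The libraries held 28111673 to 33727374 counts. After removal of low genes 17868 were tested with edgeR, and a gene is called here when its Benjamini-Hochberg adjusted p is under 0.05. Of the 35 synthetases, 34 were tested. VARS2, for mitochondrial valine, had 0 to 7 counts per library and was not tested. Of its exon bases, 63.0% lie on the same strand within another annotated gene, and the effect of this on its count was not tested. The headers give a strand setting of 1 for untreated WT replicate 1 and untreated R350H replicate 2 but 2 elsewhere, so the counts led with are also given without those 2 libraries where they move. Of 8 markers of colon epithelium, 6 reached 1 TPM (a level per length of transcript), with summed levels of 2463 to 4040 TPM by library. No blood cell or endothelial marker did, and of 4 fibroblast markers COL1A1 alone did. Levels within a gene are in CPM, counts scaled to the library size. Transcripts of the edited gene, DPF2, stood at 94.8 and 92.7 CPM in the untreated WT pair of libraries but at 58.6 and 54.4 in the R350H pair, a log2 difference of -0.73 ± 0.07 (SE, edgeR adjusted p = 9.29e-10).

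The promoters that hold the ATF4 core are shown first. Of the 8 synthetase genes that carry it, 7 fell with doxorubicin in both lines. Of all genes tested, 23.6% were lower in WT and 21.8% in R350H. The share that fell among all genes with the core was not computed, and a part of ATF4 in these falls was not tested. The RefSeq promoter table (GRCh38.p14, 250 bases before to 50 after each start, with the start as position 1) held 30 of the 35 genes. LARS1, VARS1, YARS1, AARS2 and VARS2 were not in it. Some genes have several starts, each with its own window. A gene was counted as holding the core when any of its windows did. CARS1, GARS1 and TARS1 each had a further window without the core. Distances are to the start of the window that held the core. TGATGNAA was searched on both strands, with overlaps allowed, and its reverse complement reads TTNCATCA. It was present in 8 synthetase promoters, printed 5′ to 3′ on the gene's strand as stretches of 30 bases with the core in capitals.

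AARS1: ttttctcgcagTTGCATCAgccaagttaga
CARS1: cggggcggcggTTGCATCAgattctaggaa
GARS1: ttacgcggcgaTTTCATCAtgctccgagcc
IARS1: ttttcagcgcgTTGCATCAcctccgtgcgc
MARS1: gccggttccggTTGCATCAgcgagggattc
NARS1: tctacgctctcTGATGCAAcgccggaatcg
TARS1: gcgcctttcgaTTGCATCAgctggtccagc
YARS2: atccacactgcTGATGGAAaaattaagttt

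In GRCh38.p14 these stretches are chr16:70289675-70289704 (AARS1, minus strand), chr11:3057407-3057436 (CARS1, minus), chr7:30594834-30594863 (GARS1, plus) and chr9:92293692-92293721 (IARS1, minus). The others are chr12:57488053-57488082 (MARS1, plus), chr18:57621804-57621833 (NARS1, minus), chr5:33440956-33440985 (TARS1, plus) and chr12:32756076-32756105 (YARS2, minus). The core began 187 bases before the start in AARS1 and 197 bases before it in YARS2. In CARS1, MARS1, IARS1 and GARS1 it began 2, 4, 13 and 33 bases before the start, and in TARS1 and NARS1 at positions 3 and 15 after it. The cytosolic matches all read TTGCATCA or its complement except that of GARS1.

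The core was in a window of 7 of 16 cytosolic genes (43.8%) and of 1 of 14 mitochondrial genes (7.14%). Of 11859 tested genes with a promoter in the table, 326 held it (2.75%). Among synthetases that were lower with doxorubicin in R350H cells, 7 of 10 genes held it (70.0%), and among those that were higher 1 of 15 did (6.67%). These groups were made from calls in these same data, so the split is a description. Within the 250 bases before a start alone, 3 of the 16 cytosolic genes held the core (18.8%), against 2.33% of tested genes. There, 3 of the 10 lower synthetases (30%) and 1 of the 15 higher ones (6.67%) held it. SARS1, WARS1 and EPRS1 were lower without the core in any of their windows, which says only that these letters are not in those stretches of 300 bases. A match is a description of the sequence and not a measured binding site.

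With doxorubicin, transcripts for most cytosolic synthetases fell in both lines and those for most mitochondrial synthetases rose. In WT cells 12 of 19 cytosolic genes were lower and 5 were higher, with a median log2 change of -0.38 against -0.03 over all genes tested. Of all genes tested, 23.6% were lower and 24.1% higher in this comparison. In R350H cells 12 were lower and 6 higher, with a median of -0.79 against 0.03, where 21.8% of all genes tested were lower and 26.1% higher. The 12 lower genes were the same in both lines.

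The size of the fall set the lines apart. In WT cells 4 cytosolic genes were lower by more than 1.5-fold in the edgeR test against that fold, and in R350H cells 10 were. Of all genes tested, 4.57% passed this test as lower and 5.46% as higher in WT cells, and 5.54% and 4.68% in R350H cells. The difference between the responses, R350H minus WT, was negative and called for 10 cytosolic genes and positive for 1, FARSA, where 8.18% and 6.46% of all genes tested were called. Of the 10, 4 differed by more than 1.5-fold, AARS1, CARS1, GARS1 and YARS1, a size that 1.15% of all genes tested passed as lower and 0.118% as higher.

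**Figure D1:**
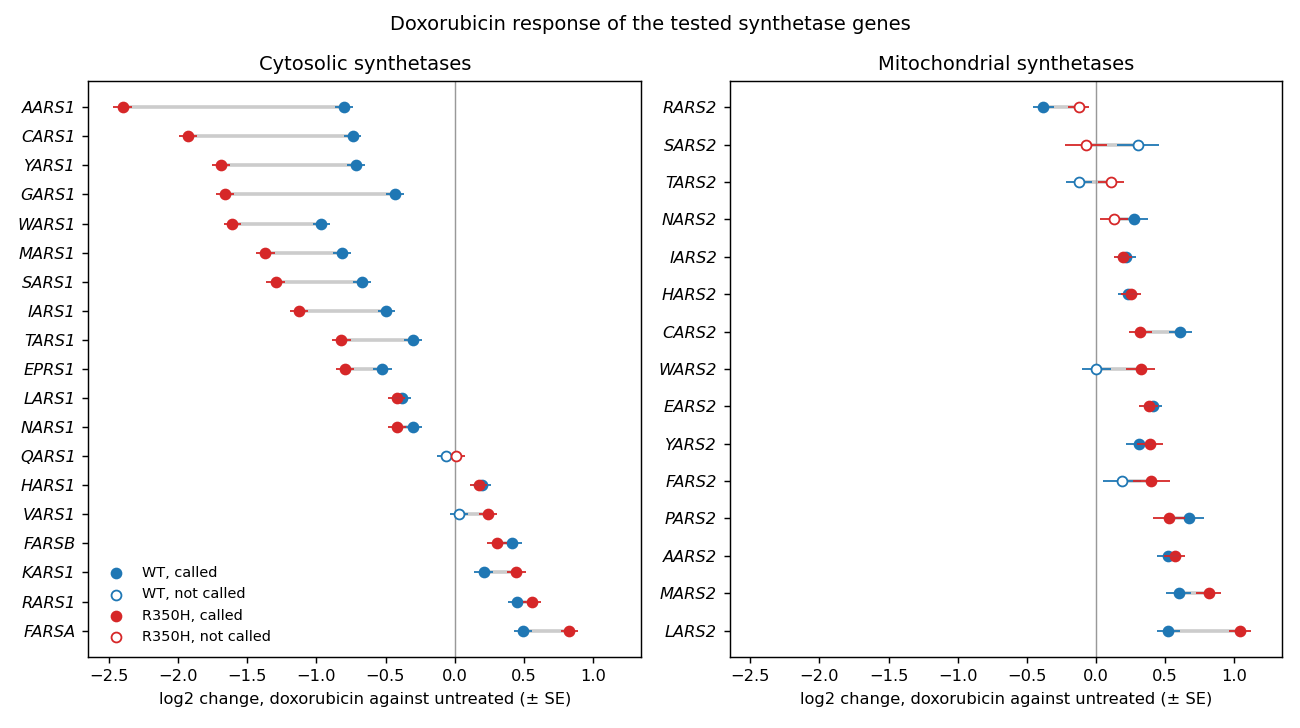
Log2 change with doxorubicin for the 19 cytosolic and 15 tested mitochondrial synthetases, in WT (blue) and R350H (red) cells, with bars of ± SE from edgeR and open points for changes not called. AARS1 runs from -0.80 in WT to -2.40 in R350H, while most mitochondrial points lie between 0 and 1 in both lines.

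AARS1 (ENSG00000090861.16, hg38 chr16:70252298-70289506, minus strand), which charges alanine tRNA, had the largest fall of the tested synthetases in R350H cells. It stood at 808 and 836 CPM in untreated WT, 472 and 472 in treated WT, 764 and 773 in untreated R350H, and 145 and 146 in treated R350H. The treated R350H libraries lay far below all others, and the untreated libraries of both lines lay close together. Its log2 change was -0.80 ± 0.06 in WT and -2.40 ± 0.07 in R350H (SE, n = 2 libraries a group), a 5.3-fold fall in the edited line, and the difference between the responses was -1.60 ± 0.09 (edgeR adjusted p = 4.33e-13).

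CARS1 (ENSG00000110619.17, chr11:3000922-3057613, minus strand) charges cysteine tRNA. Its values were 245 and 251 CPM in untreated WT, 153 and 145 in treated WT, 240.2 and 236 in untreated R350H, and 62.2 and 62.6 in treated R350H. The order of the groups was that of AARS1, with the treated groups apart from each other and from the untreated ones. The log2 change was -0.74 ± 0.06 in WT and -1.93 ± 0.07 in R350H, and the responses differed by -1.19 ± 0.09 (edgeR adjusted p = 1.22e-10).

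GARS1 (ENSG00000106105.14, chr7:30594838-30634033, plus strand) makes the glycyl enzyme of both compartments from 1 gene. It was at 448 and 455 CPM in untreated WT, 351 and 319.9 in treated WT, 427 and 409 in untreated R350H, and 132 and 133 in treated R350H. In WT cells the fall was shallow, -0.43 ± 0.07, and in R350H cells steep, -1.66 ± 0.07. The difference was -1.23 ± 0.09 (edgeR adjusted p = 1.5e-10).

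YARS1 (ENSG00000134684.10, chr1:32775237-32818153, minus strand), for tyrosine, also differed between the untreated lines. Its values were 410.5 and 416 CPM in untreated WT, 256 and 247 in treated WT, 328 and 319.5 in untreated R350H, and 98.6 and 102 in treated R350H. No groups overlapped. The log2 change was -0.71 ± 0.06 in WT and -1.69 ± 0.07 in R350H, with a difference of -0.98 ± 0.09 (edgeR adjusted p = 6.02e-09).

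WARS1, for tryptophan and also known as an interferon gamma inducible gene, had the largest fall of any synthetase in WT cells. It was at 241 and 234 CPM in untreated WT, 122 and 122 in treated WT, 240.3 and 239 in untreated R350H, and 77.6 and 79.6 in treated R350H. The untreated lines had a log2 difference of 0.01 ± 0.06, which was not called. The changes with doxorubicin were -0.96 ± 0.06 in WT and -1.61 ± 0.06 in R350H, and they differed by -0.65 ± 0.09 (edgeR adjusted p = 5.27e-06).

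MARS1, SARS1 and IARS1, for methionine, serine and isoleucine, shared a middle rank. MARS1 was at 397 and 418 CPM in untreated WT, 223 and 239.5 in treated WT, 352 and 339 in untreated R350H, and 134 and 133 in treated R350H, with changes of -0.82 ± 0.07 and -1.37 ± 0.07. SARS1 was at 472 and 509 CPM, then 309 and 308, 412 and 412, and 165 and 171 in the same order of groups, with changes of -0.67 ± 0.06 and -1.30 ± 0.07. In both, the treated R350H libraries were the lowest of the 8.

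IARS1 was at 721 and 698 CPM in untreated WT, 517 and 491 in treated WT, 641 and 604 in untreated R350H, and 284 and 286 in treated R350H, with changes of -0.49 ± 0.07 and -1.13 ± 0.07. The responses differed by -0.55 ± 0.09 for MARS1 (edgeR adjusted p = 9.24e-05), -0.63 ± 0.09 for SARS1 (1.53e-05) and -0.63 ± 0.09 for IARS1 (1.61e-05). MARS1 shares 12.4% of its exon bases with genes on the opposite strand, among them the ATF4 target DDIT3, and the part of this in its values was not tested.

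TARS1, for threonine, was the one cytosolic gene that was higher in untreated R350H cells. It was at 449 and 445 CPM in untreated WT, 379.6 and 347 in treated WT, 674 and 639 in untreated R350H, and 365 and 379 in treated R350H. The treated groups overlapped, and the untreated R350H libraries stood above all others. Its changes were -0.30 ± 0.07 and -0.82 ± 0.07, and the difference was -0.52 ± 0.09 (edgeR adjusted p = 2.78e-04).

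EPRS1, which carries the glutamyl and prolyl activities in 1 chain, fell by 0.52 ± 0.07 in WT and 0.79 ± 0.07 in R350H on the log2 scale. The difference of -0.27 ± 0.09 lay at the threshold (edgeR adjusted p = 0.0499). It was not called without untreated WT replicate 2 (adjusted p = 0.0573), without treated WT replicate 1 (0.18), or without either untreated R350H library (0.121 and 0.176) or either treated R350H library (0.144 and 0.0979).

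LARS1 and NARS1, for leucine and asparagine, fell in both lines with no called difference. LARS1 was at 478 and 453 CPM in untreated WT, 355 and 359 in treated WT, 312 and 314 in untreated R350H, and 228 and 240.1 in treated R350H. Its changes were -0.38 ± 0.06 and -0.42 ± 0.06, and they differed by -0.04 ± 0.09. NARS1 changed by -0.30 ± 0.07 and -0.42 ± 0.07, which differed by -0.12 ± 0.09.

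**Figure D2:**
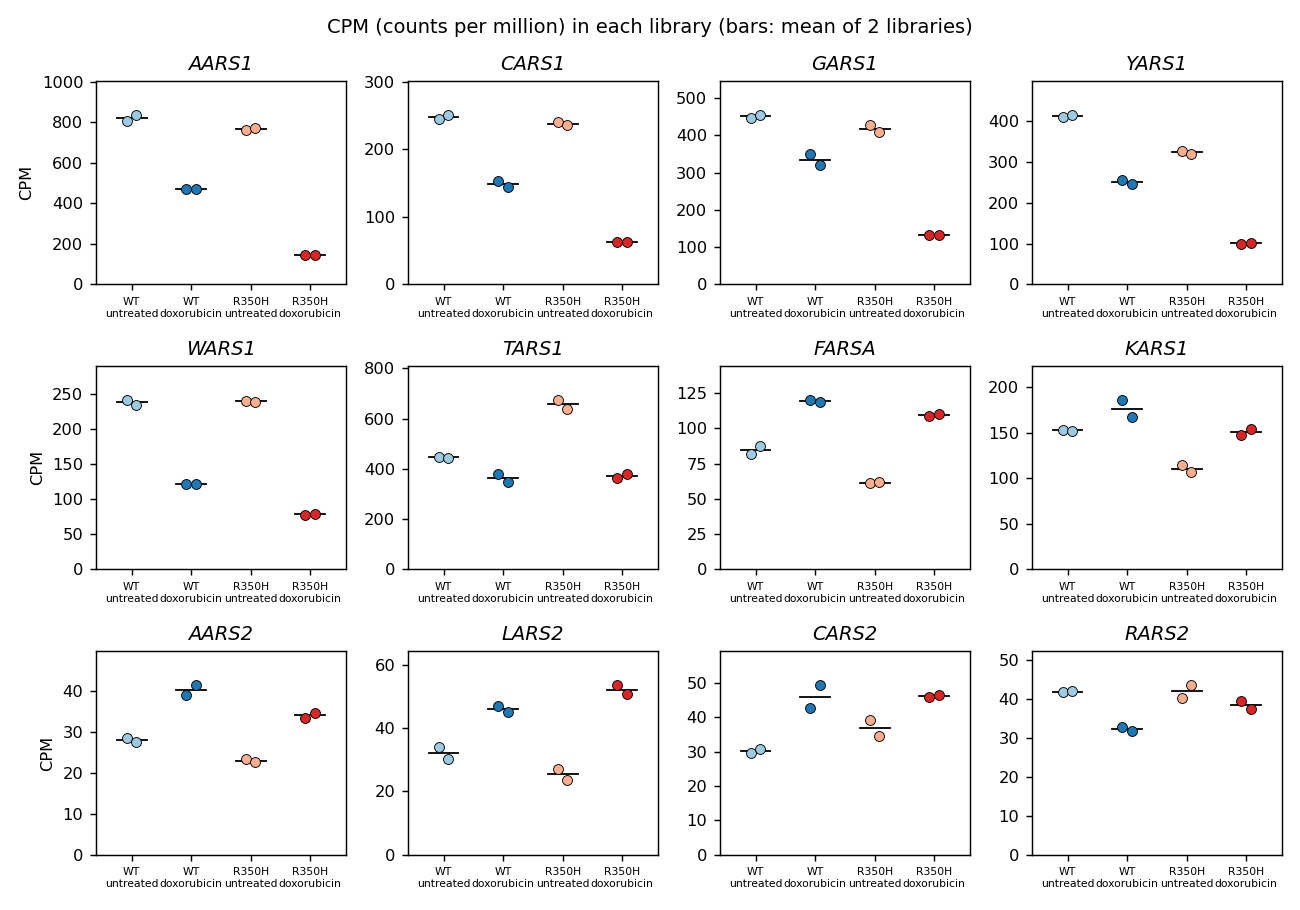
CPM of 12 synthetase genes in each library (points) with the mean of the 2 libraries of a group (bars), each axis starting at 0. AARS1 and CARS1 drop to 146 and 62.6 CPM or less in treated R350H cells, whereas FARSA, KARS1, AARS2 and LARS2 are higher in the treated than in the untreated libraries of each line.

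Some cytosolic synthetases went the other way. FARSA (ENSG00000179115.11, chr19:12922479-12934037, minus strand) and FARSB encode the alpha and beta subunits of the phenylalanyl enzyme. FARSA was at 81.9 and 87.6 CPM in untreated WT, 120.0 and 119 in treated WT, 61.3 and 61.8 in untreated R350H, and 109 and 109.8 in treated R350H. Both treated groups were above both untreated ones, and the rise was 0.49 ± 0.06 in WT and 0.83 ± 0.06 in R350H. The difference of 0.34 ± 0.09 was called (edgeR adjusted p = 0.0115), but not without treated WT replicate 2 (0.0576), untreated R350H replicate 1 (0.0595), or treated R350H replicate 1 (0.145) or 2 (0.176).

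FARSB was at 79.0 and 77.2 CPM in untreated WT, 111 and 97.4 in treated WT, 62.1 and 56.7 in untreated R350H, and 73.7 and 73.3 in treated R350H. It rose by 0.42 ± 0.07 and 0.31 ± 0.07 with doxorubicin, and the treated R350H libraries stayed below the untreated WT ones. RARS1, for arginine, was at 99.3 and 98.5 CPM, then 143 and 128, 97.5 and 100.4, and 146 and 146 in the same order. Its rises of 0.45 ± 0.07 and 0.56 ± 0.07 started from untreated levels whose log2 difference between the lines was 0.00 ± 0.07.

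KARS1 makes the lysyl enzyme of both compartments from 1 gene. Its values were 153 and 153 CPM in untreated WT, 186 and 168 in treated WT, 115 and 107 in untreated R350H, and 148 and 154 in treated R350H. It rose by 0.21 ± 0.07 in WT, a change not called without treated WT replicate 1 (0.13, edgeR adjusted p = 0.142), and by 0.45 ± 0.07 in R350H. The 2 genes that serve both compartments, GARS1 and KARS1, thus moved in opposite directions.

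HARS1, for histidine, was at 93.7 and 92.7 CPM in untreated WT, 105 and 109 in treated WT, 101 and 97.2 in untreated R350H, and 109.8 and 114 in treated R350H. The changes were small, 0.20 ± 0.06 and 0.17 ± 0.06, and the second was not called without any 1 of the 4 R350H libraries (edgeR adjusted p from 0.0536 to 0.361) or with the size factors of DESeq2 (0.0603). VARS1, for valine, was at 255 and 275 CPM, then 275 and 267, 187 and 176, and 215 and 215. Its change was 0.03 ± 0.06 in WT, not called, and 0.24 ± 0.07 in R350H, which was not called without untreated R350H replicate 2 (0.0707) or treated R350H replicate 1 (0.0726) or 2 (0.0795).

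QARS1, for glutamine, was the cytosolic gene with no call in either line. It ran from 223 to 270.2 CPM over the 8 libraries, with changes of -0.06 ± 0.07 and 0.01 ± 0.07.

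Among the 15 mitochondrial synthetases tested, 10 were higher and 1 lower with doxorubicin in WT cells, with a median log2 change of 0.31, where 24.1% of all genes tested were higher and 23.6% lower. In R350H cells 11 were higher and none lower, with a median of 0.33, where 26.1% of all genes tested were higher and 21.8% lower. Of these, 9 were higher in both lines, AARS2, CARS2, EARS2, HARS2, IARS2, LARS2, MARS2, PARS2 and YARS2. By more than 1.5-fold, 2 genes, LARS2 and MARS2, were higher in R350H cells (4.68% of all genes tested) and none in WT cells (5.46%). The count of 11 was 7 without untreated R350H replicate 2, without treated R350H replicate 1 or without treated R350H replicate 2, and it was also 7 without the 2 libraries of strand setting 1.

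LARS2 (ENSG00000011376.12, chr3:45388561-45554726, plus strand), for mitochondrial leucine, had the largest rise of all synthetases. It was at 33.8 and 30.1 CPM in untreated WT, 47.0 and 45.1 in treated WT, 27.0 and 23.6 in untreated R350H, and 53.5 and 50.6 in treated R350H. The groups did not overlap. The edited line was lower before treatment (-0.34 ± 0.08), and the difference between the treated lines, 0.18 ± 0.08, was not called (edgeR adjusted p = 0.0766). The change was 0.53 ± 0.08 in WT and 1.04 ± 0.08 in R350H, and the difference of 0.52 ± 0.12 was the only mitochondrial one called (edgeR adjusted p = 0.00254). Without the 2 libraries of strand setting 1 it was 0.33 and not called (adjusted p = 0.0966).

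MARS2, for methionine, was at 17.5 and 17.1 CPM in untreated WT, 27.2 and 25.4 in treated WT, 14.8 and 16.0 in untreated R350H, and 28.0 and 26.3 in treated R350H. Its rises of 0.60 ± 0.09 and 0.82 ± 0.09 brought both treated groups to overlapping levels. AARS2, for alanine, was at 28.4 and 27.5 CPM, then 39.0 and 41.4, 23.3 and 22.5, and 33.4 and 34.6. It rose by 0.52 ± 0.08 and 0.57 ± 0.08, from a lower level in the edited line.

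CARS2, for cysteine, was at 29.6 and 30.8 CPM in untreated WT, 42.7 and 49.4 in treated WT, 39.2 and 34.7 in untreated R350H, and 45.9 and 46.4 in treated R350H. It rose by 0.61 ± 0.08 in WT and 0.32 ± 0.08 in R350H, the second not called without untreated R350H replicate 2 (0.24, edgeR adjusted p = 0.0669). PARS2, for proline, was at 11.2 and 10.9 CPM, then 19 and 16.1, 8.51 and 10.2, and 13.9 and 13.0. It had the largest rise in WT cells, 0.67 ± 0.11, and rose by 0.53 ± 0.12 in R350H cells.

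RARS2, for arginine, was the mitochondrial exception in WT cells. It was at 41.7 and 42.0 CPM in untreated WT, 32.6 and 31.6 in treated WT, 40.2 and 43.5 in untreated R350H, and 39.3 and 37.4 in treated R350H. The treated WT libraries were the lowest and did not overlap any other group. The change was -0.38 ± 0.08 in WT, and -0.12 ± 0.07 in R350H, which was not called. RARS1 and RARS2 therefore had opposite signs in WT cells, in the reverse of the usual order.

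Among the remaining mitochondrial genes, EARS2, HARS2, IARS2 and YARS2, for glutamate, histidine, isoleucine and tyrosine, rose by 0.20 to 0.41 in both lines on the log2 scale. NARS2, for asparagine, was called higher in WT (0.28 ± 0.10), and FARS2 and WARS2, for phenylalanine and tryptophan, in R350H (0.40 ± 0.13 and 0.33 ± 0.10), but the difference between the responses was called for none of them. SARS2 and TARS2, for serine and threonine, were called in neither line. SARS2 shares 48.2% of its exon bases with a gene on the same strand. Of these calls, those of NARS2 and YARS2 in WT were not made without untreated WT replicate 1 or treated WT replicate 1, that of IARS2 in WT without treated WT replicate 1, and those of IARS2 and FARS2 in R350H without any 1 of the 4 R350H libraries. WARS2 in R350H was not called without untreated R350H replicate 2 or either treated R350H library, nor HARS2 in R350H without untreated R350H replicate 1 or either treated R350H library.

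Mean log2 CPM over the 19 cytosolic genes was 8.13 and 8.14 in untreated WT, 7.88 and 7.82 in treated WT, 7.94 and 7.90 in untreated R350H, and 7.22 and 7.25 in treated R350H. Over the 15 mitochondrial genes it was 4.59 and 4.65, then 4.92 and 4.90, 4.48 and 4.47, and 4.83 and 4.82. The cytosolic mean was lowest in treated R350H, and the mitochondrial mean was lowest in untreated R350H. The gap between the class means was 3.54 and 3.49 in untreated WT, 2.96 and 2.92 in treated WT, 3.46 and 3.43 in untreated R350H, and 2.39 and 2.43 in treated R350H, so it was smaller in treated than in untreated libraries of both lines and smallest in treated R350H.

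**Figure D3:**
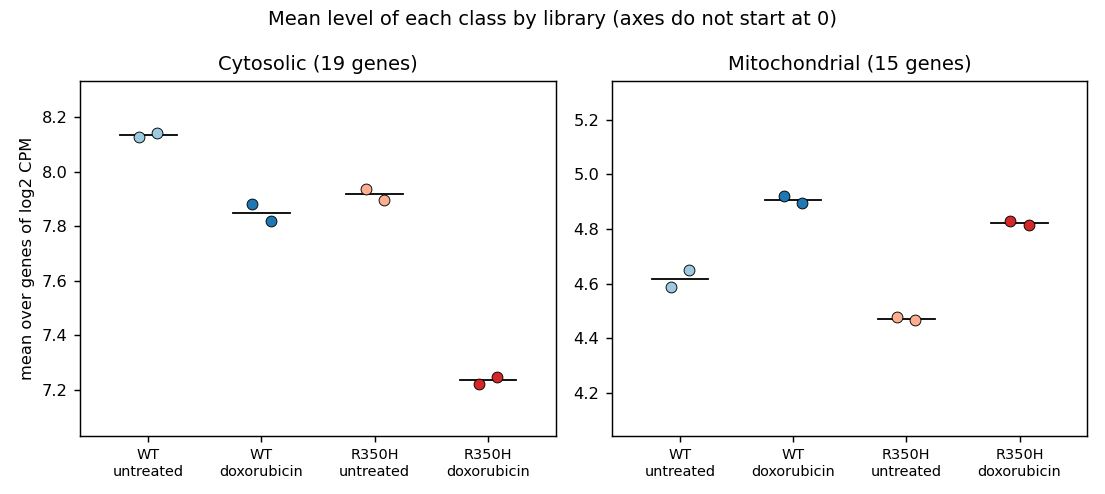
Mean over genes of log2 CPM for each class in each library (points) with the mean of the 2 libraries (bars), on axes of equal span that do not start at 0. The cytosolic mean spans 8.14 in the highest untreated WT to 7.22 in the lowest treated R350H library, and the mitochondrial mean is higher in treated than in untreated libraries of each line.

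In untreated cells the edited line already had less of many cytosolic synthetase transcripts. Of the 19 genes, 12 were lower and 1, TARS1, was higher than in WT, with a median log2 difference of -0.24 against -0.01 over all genes tested, of which 19.5% were lower and 17.3% higher. None passed the 1.5-fold test in either direction, which 2.64% of all genes tested did as lower and 2.39% as higher. The largest were LARS1 (-0.57 ± 0.06), VARS1 (-0.55 ± 0.07), KARS1 (-0.47 ± 0.07), FARSA (-0.46 ± 0.07), EPRS1 (-0.43 ± 0.07), NARS1 (-0.42 ± 0.07) and FARSB (-0.40 ± 0.07). TARS1 was higher by 0.56 ± 0.07 (edgeR adjusted p = 1.72e-07).

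Of the 8 cytosolic genes with the firmest difference between responses, AARS1, CARS1, GARS1 and WARS1 were not called between the untreated lines, with differences from -0.11 to 0.01. YARS1 (-0.35 ± 0.06), SARS1 (-0.25 ± 0.06), MARS1 (-0.24 ± 0.06) and IARS1 (-0.19 ± 0.07) were lower. The calls of IARS1 and QARS1 (-0.17 ± 0.07, edgeR adjusted p = 0.0437) were not made when only the untreated groups were fitted (0.068 and 0.101). IARS1 was also not called without untreated WT replicate 1 or any 1 of the 4 R350H libraries, and QARS1 without untreated WT replicate 2, untreated R350H replicate 2 or either treated R350H library. MARS1 was not called without untreated R350H replicate 2 (0.0649). Of the 15 mitochondrial genes tested, 5 were lower, WARS2, LARS2, AARS2, EARS2 and HARS2, and 1, CARS2, was higher (0.29 ± 0.08). Of all genes tested, 19.5% were lower and 17.3% higher in this comparison. The count of 5 was 3 without untreated WT replicate 2, without either untreated R350H library, or without the libraries of strand setting 1, and CARS2 was not called without untreated R350H replicate 1 (0.20, adjusted p = 0.159). LARS2 and AARS2 were not called without untreated R350H replicate 2, WARS2 without that library or untreated WT replicate 2, and EARS2 without untreated R350H replicate 1. LARS2, AARS2 and EARS2 were not called without the libraries of strand setting 1. Without those libraries, and without untreated R350H replicate 2, the count of 3 therefore includes a mitochondrial gene that is not among the 5. HARS2 was not called without either untreated WT library, untreated R350H replicate 1 or either treated R350H library, nor with the size factors of DESeq2 (0.059).

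With doxorubicin, 14 of 19 cytosolic genes were lower in R350H than in WT and none was higher, with a median difference of -0.61 against 0.02 over all genes tested. Of all genes tested 21% were lower and 19.1% higher, and 4.12% and 2.75% passed the 1.5-fold test. The 7 cytosolic genes that passed it as lower were led by AARS1 (-1.70 ± 0.07), GARS1 (-1.34 ± 0.07), YARS1 (-1.33 ± 0.07) and CARS1 (-1.25 ± 0.07). FARSA, HARS1, QARS1, RARS1 and TARS1 were not called, with differences from -0.13 to 0.11. KARS1 (-0.23 ± 0.07) was lower, but not without treated WT replicate 1 (edgeR adjusted p = 0.102) or treated R350H replicate 1 (0.0535).

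Of the 15 mitochondrial genes tested, 5 were lower with doxorubicin in R350H than in WT, where 21% of all genes tested were lower and 19.1% higher. These were SARS2 (-0.40 ± 0.15), PARS2 (-0.38 ± 0.11), NARS2 (-0.37 ± 0.10), EARS2 (-0.26 ± 0.07) and AARS2 (-0.24 ± 0.08). No mitochondrial gene passed the 1.5-fold test in either direction. RARS2 was higher (0.26 ± 0.08), a call that was not made without treated WT replicate 2, treated R350H replicate 1 or treated R350H replicate 2 (edgeR adjusted p = 0.134, 0.234 and 0.0809). The count of 5 was 3 without treated WT replicate 1, which ended the calls of PARS2 and NARS2. SARS2 was not called without treated WT replicate 2 or treated R350H replicate 2, nor AARS2 without treated R350H replicate 1. The class median was -0.03, against 0.02 over all genes tested.

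Pairing the enzymes for the same amino acid gave 15 pairs in which both genes were tested, with EPRS1 set beside EARS2 and beside PARS2 and FARSA beside FARS2. With doxorubicin the cytosolic gene had the lower log2 change in 13 of 15 pairs in WT and in 13 of 15 in R350H. In both lines the exceptions were FARSA with FARS2 and RARS1 with RARS2. FARSB, left out of the pairs, changed by 0.42 in WT and 0.31 in R350H, against 0.19 and 0.40 for FARS2. In R350H phenylalanine was therefore an exception with FARSA but not with FARSB. The median difference of the paired changes was -0.94 in WT and -1.32 in R350H. Alanine showed the widest split in R350H cells, where AARS1 changed by -2.40 and AARS2 by 0.57. Cysteine (-1.93 and 0.32), methionine (-1.37 and 0.82) and tyrosine (-1.69 and 0.39) followed. Histidine showed almost none, with changes of 0.17 for HARS1 and 0.25 for HARS2, whose annotated starts in GRCh38.p14 lie 85 bases apart on opposite strands.

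Levels between genes were compared per length, in TPM computed from the counts and exon lengths. Over all 8 libraries AARS1 was the highest synthetase at a mean of 370.0 TPM, followed by SARS1 at 267, GARS1 at 249, TARS1 at 241 and NARS1 at 232. Within groups TARS1 and NARS1 did not overlap. TARS1 was the lower in WT cells, untreated (means of 234.5 and 301.2 TPM) and treated (174.8 and 224.0). It was the higher in R350H cells, untreated (357.2 and 233.5) and treated (197.8 and 170.7). SARS1 and GARS1 overlapped in untreated R350H only, and GARS1 was the higher in treated WT only (231.2 against 221.1). IARS2 at 124 TPM was the highest mitochondrial gene and ranked 9 of 35. The lowest tested member was FARS2 at 3.92 TPM, and HARS1 and HARS2 were close to each other at 40.6 and 37.0 TPM.

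The place of AARS1 in this order changed with treatment in the edited line. AARS1 was the highest synthetase in untreated R350H, at 535.8 ± 1.655 TPM (SD, n = 2). In treated R350H it was at 99.1 ± 0.0132, where TARS1 was at 198 ± 4.42, NARS1 at 171 ± 3.12 and IARS2 at 129 ± 1.44. In WT it was the highest in both groups, at 553 ± 2.20 untreated and 291.9 ± 12.48 treated. The summed TPM of the cytosolic genes was 9.58 and 9.48 times that of the mitochondrial genes in untreated WT, 6.12 and 6.23 times in treated WT, 9.41 and 9.22 times in untreated R350H, and 4.30 and 4.41 times in treated R350H. The treated groups did not overlap, and neither did they overlap the untreated ones. In bulk RNA a lower level in each cell and fewer cells with a high level cannot be told apart.

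**Figure D4:**
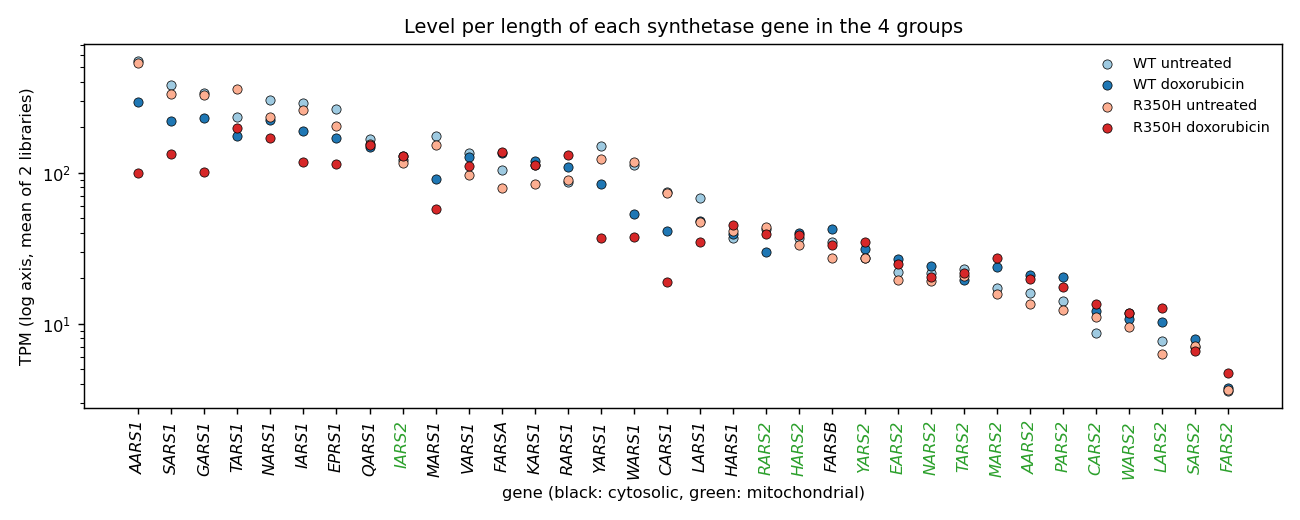
Level of 34 synthetase genes in TPM on a log axis, ordered by the mean over 8 libraries, with 1 point per group (mean of 2 libraries) and symbols in black for cytosolic and green for mitochondrial genes. The red points of treated R350H cells fall to 99.1 TPM for AARS1, below that of IARS2 at 129 TPM.

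Falls and rises occurred in each structural group of the enzymes. The counts that follow are for doxorubicin in R350H, where 21.8% of all genes tested were lower and 26.1% higher. Of the 7 cytosolic genes whose products sit in the multi-synthetase complex, EPRS1, IARS1, KARS1, LARS1, MARS1, QARS1 and RARS1, doxorubicin in R350H lowered 4 and raised 2, with a median of -0.42. Of the 12 outside the complex it lowered 8 and raised 4, with a median of -1.06. The synthetases also fall into class I and class II by the fold of the catalytic domain. Of 9 cytosolic genes of class I, 6 were lower and 2 higher, and of 9 of class II, 5 were lower and 4 higher. EPRS1 holds a domain of each class. The difference between these groups was not tested.

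The partners of the synthetases were read from gene lists in the same fits. With doxorubicin, 24.1% of all genes tested were higher and 23.6% lower in WT, and 26.1% and 21.8% in R350H. None of the complex scaffolds AIMP1, AIMP2 and EEF1E1 was called with doxorubicin in WT, and in R350H AIMP1 alone was (0.21 ± 0.06). The 4 genes that finish mitochondrial aminoacyl-tRNAs, GATB, GATC and QRSL1 of the amidotransferase that makes glutaminyl-tRNA and MTFMT that formylates initiator methionyl-tRNA, all rose in both lines, by 0.31 to 0.57 on the log2 scale. XPOT, which exports tRNA from the nucleus, was at 329 and 321 CPM in untreated WT, 228 and 221 in treated WT, 432 and 450.4 in untreated R350H, and 159 and 157 in treated R350H. Like TARS1 it was higher in untreated R350H (0.44 ± 0.06) and changed by -1.48 ± 0.06 there against -0.54 ± 0.06 in WT, a difference of -0.95 ± 0.09 (edgeR adjusted p = 1.14e-08).

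Of the cytosolic elongation factors, 4 of 5 were tested. EEF1A1 and EEF2, which bring charged tRNA to the ribosome and move it along, changed by -0.20 ± 0.07 and -0.26 ± 0.07 with doxorubicin in R350H. All 4 were lower in R350H than in WT, untreated and treated, where 19.5% and 21% of all genes tested were lower. None had a called difference between the responses, which 8.18% of all genes tested had as lower and 6.46% as higher. Among 4 mitochondrial elongation factors 2 were higher with doxorubicin in each line, TUFM by 0.22 in WT and 0.29 in R350H and GFM1 by 0.48 and 0.30. Of all genes tested, 24.1% were higher in WT and 26.1% in R350H.

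ATF4 and its known targets, with no synthetase among them, moved in the direction of most cytosolic synthetases. Of 26 tested genes of this list, 15 were lower and 4 higher with doxorubicin in WT, and 23 were lower and 1 higher in R350H, with medians of -0.33 and -1.79 on the log2 scale. Of all genes tested 23.6% were lower and 24.1% higher in WT, and 21.8% and 26.1% in R350H. The difference between the responses was called lower for 23 of the 26 and higher for none, against 8.18% and 6.46% of all genes tested. ATF4 itself stood at 742 and 816 CPM in untreated WT, 633 and 601 in treated WT, 651 and 659 in untreated R350H, and 208 and 215 in treated R350H. The treated R350H libraries were again the lowest, and the changes were -0.34 ± 0.07 in WT and -1.63 ± 0.07 in R350H.

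ASNS, asparagine synthetase and a standard ATF4 target, was at 74.0 and 70.0 CPM in untreated WT, 36.9 and 43.0 in treated WT, 74.6 and 65.9 in untreated R350H, and 7.02 and 7.59 in treated R350H. DDIT3, the stress factor CHOP, was at 112 and 125, then 84.8 and 84.9, 202 and 191, and 13.8 and 14.7 CPM. Their log2 changes in R350H, -3.27 ± 0.10 for ASNS and -3.79 ± 0.08 for DDIT3, were further below 0 than that of AARS1. The list was chosen with earlier results of these data known, so its direction is a description and gives no independent support. The core TGATGNAA was in a promoter window of 5 of the 20 genes of the list that the table held (25%).

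The authors' deposited TPM table of 202 genes held 4 of the synthetases, AARS1, CARS1, GARS1 and YARS1. In the authors' deposited table AARS1 was at 77.1 and 79.8 TPM in untreated WT, 37.5 and 40.8 in treated WT, 76.3 and 74.3 in untreated R350H, and 13.2 and 13.2 in treated R350H. From the authors' deposited table the log2 ratio of treated to untreated group means was -1.0, -0.95, -0.64 and -0.92 in WT for AARS1, CARS1, GARS1 and YARS1. In R350H the authors' deposited table gave -2.51, -2.05, -1.79 and -1.79 in the same order. The ratios are all somewhat lower than the log2 changes from the counts, and the order of the groups is the same for each gene. The measures differ, since the ratios are of TPM and the log2 changes are from TMM-scaled counts, and the part of this in the gap was not tested. The levels differ by source, and unevenly between genes. In untreated WT the authors' deposited table gave a mean of 78.5 TPM for AARS1, 42.3 for GARS1, 34.7 for YARS1 and 15.1 for CARS1, against 553, 339, 151 and 74.1 from the counts. The order of these 4 genes was the same in both, and the levels of the other synthetases rest on TPM from the counts alone.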

How the data were processed

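The authors deposited whole-number fragment counts per gene, 1 table a library, made per the file headers by featureCounts 2.0.1 with GENCODE release 34 and a minimum mapping quality of 10. The submitters' processing notes name hg38, STAR 2.7.5a, Trim Galore 0.6.10 and another release of featureCounts (1.5.0-p1). Per the labels' protocols, mRNA libraries were made with the stranded TruSeq kit. A deposited table holds the authors' TPM of 202 genes, made by steps not given in the sources used here.

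Counts were scaled by TMM, filtered by filterByExpr (17868 genes with 99.9% of the counts kept) and fitted with edgeR 4.0.16 in R 4.3.3, a robust quasi-likelihood model with 1 mean per group over all 8 libraries and 4 residual degrees of freedom. The common coefficient of variation was 5.35%. Tests were two-sided with Benjamini-Hochberg adjustment over all genes tested, in 5 comparisons that share libraries with one another. The 1.5-fold test was glmTreat. CPM use TMM-scaled library sizes, TPM use the counts and exon lengths of the headers, and ± is SE for log2 changes and SD for levels. Within every group the chi-square per gene between libraries was above that of counting noise (1.96 to 8.15).

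The members and lists were chosen with earlier results of these data known. All 35 members are named, and 1 gene of the other lists is not reported here. Values in every library are given for the 8 members with the smallest p in the difference between responses, the 4 largest rises and falls called in each other comparison, and members that go against most of their class. The alternatives were other size factors, no filter, DESeq2 1.42.0, only the groups compared, a replicate block, each library left out and the libraries of strand setting 1 left out. A comparison of protein sequences was not run. Figures used matplotlib 3.10.9 in Python 3.11.15.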

Additional observations from a re-analysis of the deposited data

Results flagged for a closer look

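The doxorubicin responses of 12 synthetases differed between the lines in the edgeR test of the difference itself (log2, R350H minus WT). It was negative for AARS1 (-1.60), GARS1 (-1.23), CARS1 (-1.19), YARS1 (-0.98), WARS1 (-0.65), IARS1 (-0.63), SARS1 (-0.63), MARS1 (-0.55), TARS1 (-0.52) and EPRS1 (-0.27), all cytosolic. It was positive for the cytosolic FARSA (0.34) and the mitochondrial LARS2 (0.52). EPRS1, FARSA and LARS2 were not called under 1 or more alternatives, and the other 9 were called under every alternative run other than the 1.5-fold test.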

How the results depend on the processing

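No class median in the report changed sign under other size factors, no filter on low counts, DESeq2, a fit of only the groups compared, a replicate block or the removal of the libraries with strand setting 1. Of 108 called member results, 29 were not called under at least 1 alternative other than the 1.5-fold test, and 0 reversed. Of 62 not called, 26 changed sign and 12 were called under at least 1 alternative. The size factors of DESeq2 moved the median over all genes by no more than 0.05 on the log2 scale. TPM are scaled in another way and were not tested. In untreated and treated WT, mean TPM were 37.13 and 39.15 for HARS1 and 112.9 and 119.7 for KARS1. They were 36.64 and 39.54 for HARS2 and 121.1 and 129.5 for IARS2. These rises are smaller than the log2 changes of 0.20 to 0.23 from the TMM-scaled counts, so small changes in WT depend on the scaling. With 2 libraries a group, a lone library is assumed to vary like the other groups.

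The 1.5-fold test left, for cytosolic synthetases, 0 higher and 4 lower with doxorubicin in WT, and 1 higher and 10 lower in R350H. It left 0 and 0 between the untreated lines, 0 higher and 7 lower between the treated lines, and 0 higher and 4 lower in the difference between responses. For mitochondrial synthetases it left 0 in each direction, except 2 higher with doxorubicin in R350H. Over all genes it left 976 higher and 817 lower, 836 and 989, 427 and 471, 492 and 736, and 21 and 206 in the same order. A fit of only the groups compared called 1 mitochondrial gene lower with doxorubicin in R350H and 2 higher between the treated lines. DESeq2 called 619 genes as higher in the difference between responses. Without the libraries with strand setting 1, 7 mitochondrial genes were higher with doxorubicin in R350H, 3 were lower between the untreated lines, 2 were higher between the treated lines and 0 were higher in the difference. That setting called 1930 genes as higher between the untreated lines and 720 in the difference. The cause was not tested.

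Leaving out 1 library at a time gave these ranges. With doxorubicin in WT the mitochondrial median ran from 0.222 to 0.423, and in R350H 7 to 11 mitochondrial genes were higher. Between the untreated lines 0 to 1 mitochondrial genes were higher and 3 to 5 lower. Between the treated lines 0 to 1 cytosolic genes were higher, 0 to 2 mitochondrial genes higher and 3 to 6 lower, the medians ran from -0.695 to -0.611 (cytosolic) and -0.117 to -0.028 (mitochondrial), and 1987 to 3620 of all genes were higher. In the difference between responses 0 to 2 cytosolic genes were higher, 0 to 1 mitochondrial genes lower and 417 to 1219 of all genes higher, and the cytosolic median ran from -0.410 to -0.194. The mitochondrial median of the difference, 0.05, ran from -0.058 to 0.083 and reversed without treated WT replicate 2 (-0.058) and without treated R350H replicate 2 (-0.034).

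The summed cytosolic over mitochondrial level, taken as CPM without length, was 12.58 before and 7.745 after doxorubicin in WT, and 12.2 and 5.35 in R350H. The promoter core was in 18.8% of cytosolic genes and 2.33% of tested genes within the bases before a start alone. Libraries of different groups with the same replicate number did not deviate together (correlations from -0.0759 to 0.041), and the main fit pairs no libraries by number. These correlations cannot show whether libraries of the same number were grown or prepared together. With the replicate number as a block, 106 of 108 called member results were still called. EPRS1 was not called in the difference (-0.27, edgeR adjusted p = 0.0637) nor QARS1 between the untreated lines (-0.17, 0.0557), which left 9 cytosolic genes lower in the difference and 11 between the untreated lines.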

Other observations

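Counts in the other lists are read against all genes tested, of which 24.1% were higher and 23.6% lower with doxorubicin in WT, and 26.1% and 21.8% in R350H. Of 12 genes of tRNA maturation and export, 9 were higher and 1, XPOT, was lower with doxorubicin in R350H, among them POP1 of RNase P (1.08) and ELAC2 that trims tRNA 3′ ends (0.62). In WT, 5 were higher and 2 lower. Of 8 genes that modify mitochondrial tRNA, 5 were higher and MTO1 lower (-0.57) in R350H, and 4 were higher and none lower in WT. Of 3 genes that remove misplaced amino acids from tRNA, DTD1 was lower in both lines (-1.07 in WT and -0.82 in R350H) and DTD2 was higher in both.

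Of 9 tested regulators of mitochondrial biogenesis, 5 were higher and 1 lower with doxorubicin in WT, and 5 and 2 in R350H. PPARGC1B (0.79 and 0.95) and ESRRA (0.59 and 0.53) were among those higher in both. NRF1 was lower in both (-0.69 and -0.54), and GABPA was called lower in R350H (-0.195) and not in WT. A list of eIF2 alpha kinases, phosphatase subunits and eIF2 alpha itself (EIF2S1) held 7 genes. Of these, 2 were higher and 3 lower in WT, and 3 and 3 in R350H. PPP1R15A, an ATF4-dependent phosphatase subunit, fell by 0.59 in WT and 2.41 in R350H on the log2 scale. EIF2AK4, the kinase that senses uncharged tRNA, rose by 0.87 and 0.89. Of the other kinases, EIF2AK3 changed by -0.36 and -0.67 and EIF2AK2 by -0.60 and 0.18, and EIF2AK1 was called in neither line.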
